A study of Mus musculus with 2 samples.

Results

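Keratinocytes rich in transcripts of the late cornified envelope (Lce) genes were taken as all cells in which genes whose symbol begins with Lce held at least 1% of the unique molecular identifiers (UMIs, each standing for 1 captured transcript tag), while Col1a1, Col1a2, Col3a1 and Dcn together held under 0.5%. There were 72 such cells among 8875 kept cells of the wildtype library and 53 among 8617 of the Eppk1-/- library. The cells were thus chosen by their measured Lce share, and Lce levels are given as a description and not as a finding. Dorsal skin from a 6 mm punch of 1 wildtype C57BL/6J mouse and of 1 Eppk1-/- mouse backcrossed to C57BL/6J was dissociated with enzymes and profiled by single-cell RNA sequencing with a probe set of 19059 genes (10x Genomics Flex). The knockout was carried by the whole animal, no treatment is named, and the age of the mice and the deleted part of Eppk1 are not given in the sources used here. Each genotype is 1 animal and 1 library. No test between genotypes was therefore possible, and every interval below is an exact 95% interval that covers counting error and not the spread between mice. Intervals of CPM and of log2 ratios treat UMIs as independent and also leave out the spread between cells. Cells of both mice were pooled before droplets were formed. Of the droplet barcodes, 1211 occurred in both libraries, among them those of 14 wildtype and 5 Eppk1-/- Lce-rich cells.

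Keratinocytes leave the basal layer, fill with the keratins Krt1 and Krt10 in the spinous layer, store profilaggrin and loricrin in the granular layer, and then die to form the cornified layer. In this last step proteins such as loricrin and the Lce proteins are cross-linked beneath the membrane into the cornified envelope, lipids are released between the cells, and nucleus and organelles are broken down. The genes of many envelope proteins lie side by side in the epidermal differentiation complex. Plakins such as epiplakin (Eppk1) and desmoplakin (Dsp) bind keratin filaments or tie them to cell junctions.

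The 17 Lce genes of the probe set, all protein-coding, lie on chromosome 3 (GRCm38, mm10), from Lce6a at chr3:92620081-92621660 to Lce1m at chr3:93017810-93019060. Lor, the loricrin gene, lies before them at chr3:92080271-92083142, and Flg at chr3:93273523-93293686 and Hrnr at chr3:93319749-93333570 lie after them. Lce1m, the Lce gene with most UMIs, is apart from Lce1a1, Lce1b, Lce1a2, Lce1c and Lce1d, which follow each other near Lce6a, and the Lce3 genes lie in between. RefSeq sequences of the 250 bases before the start were found for 16 of the 17 Lce genes (GRCm38.p6). The windows of Lce1m (chr3:93019062-93019311), Lce1d (chr3:92687211-92687460), Lce1b (chr3:92656927-92657176) and Lor (chr3:92083143-92083392), all on the minus strand, are shown because Lce1m and Lor were abundant in most of these cells while Lce1b and Lce1d took larger shares in the cells richest in Lce. Capitals mark the letters TATAAA, known as the TATA box, or those of an AP-1 site, TGANTCA, both searched on either strand and with no overlap of the matches.
Lce1m: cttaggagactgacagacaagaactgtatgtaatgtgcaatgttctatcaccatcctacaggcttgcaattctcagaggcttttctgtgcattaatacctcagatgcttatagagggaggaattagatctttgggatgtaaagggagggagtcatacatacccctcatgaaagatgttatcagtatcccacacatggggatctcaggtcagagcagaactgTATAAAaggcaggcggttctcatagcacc
Lce1d: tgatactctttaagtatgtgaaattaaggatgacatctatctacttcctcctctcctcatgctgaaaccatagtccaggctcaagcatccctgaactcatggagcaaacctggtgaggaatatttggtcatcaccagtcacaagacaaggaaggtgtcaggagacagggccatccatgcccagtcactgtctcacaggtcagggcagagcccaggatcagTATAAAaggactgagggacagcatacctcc
Lce1b: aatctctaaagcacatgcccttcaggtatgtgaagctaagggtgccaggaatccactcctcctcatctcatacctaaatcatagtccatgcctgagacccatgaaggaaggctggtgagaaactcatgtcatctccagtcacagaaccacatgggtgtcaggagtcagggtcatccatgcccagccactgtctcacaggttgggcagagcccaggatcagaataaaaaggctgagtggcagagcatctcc
Lor: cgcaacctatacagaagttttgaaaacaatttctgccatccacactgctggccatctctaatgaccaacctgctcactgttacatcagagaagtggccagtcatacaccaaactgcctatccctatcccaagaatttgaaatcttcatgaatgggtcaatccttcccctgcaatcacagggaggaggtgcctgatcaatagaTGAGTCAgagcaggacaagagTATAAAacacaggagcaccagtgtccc
TATAAA was found 29 to 24 bases before the start of Lce1m, 30 to 25 bases before that of Lce1d and 27 to 22 bases before that of Lor. It was found in 4 of the 16 Lce windows and in 12.4% of 32851 mouse windows of that length. The other Lce matches were on the opposite strand and farther from the start, 218 to 213 bases before that of Lce6a and 243 to 238 before that of Lce3e. TGANTCA was found in 0 of the 16 Lce windows, in those of Lor and Flg, and in 6.75% of all windows. TTGCNNAA, the C/EBP letters, was found in 1 of the 16 Lce windows, that of Lce3f, and in 9.56% of all. These are matches of letters and no record of binding.

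The Lce-rich cells were deep in UMIs and poor in genes. They held a median of 18545 UMIs (1014 to 44416) and 1753 genes in the wildtype library and of 18776 UMIs (4999 to 42392) and 1953 genes in the Eppk1-/- library, with 1417237 and 1063229 UMIs in all. Granular cells, here cells with at least 1% Flg and Lor UMIs but under 1% Lce UMIs, held a median of 16791 and 19289 UMIs but 3726 and 3804 genes. The Lce share ran from 1.24% to 34.0% (median 9.94%) in wildtype cells and from 1.13% to 27.6% (median 10.6%) in Eppk1-/- cells, and the nearest cells below the threshold stood at 0.973% and 0.602%. Lce-rich cells made up 0.811% of kept wildtype cells (Clopper-Pearson interval 0.635 to 1.02%) and 0.615% of kept Eppk1-/- cells (0.461 to 0.804%), and the intervals overlapped. The punches differed in fibroblast-type cells, which were 18.3% and 30.7% of kept cells. Among the basal, spinous, granular and Lce-rich cells alone, the Lce-rich share was 1.64% and 1.55%.

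The label was checked against 5 markers, Lce1a1, Lce1b, Lce1c, Lce1d and Hrnr. The Lce genes among them chose the cells, and Hrnr (hornerin, a filaggrin-like protein) went against the label. Hrnr stood at 1491 and 1831 CPM (counts per 1000000 UMIs) in wildtype and Eppk1-/- Lce-rich cells, against 3026 and 4217 CPM in granular cells. Lor reached 142993 and 136629 CPM, against 30561 and 27574 CPM in granular cells. Krt10 stood at 27476 and 26545 CPM in spinous, 15444 and 14618 CPM in granular and 2633 and 2448 CPM in Lce-rich cells. The basal keratin Krt5 stood at 86.8 and 51.7 CPM in Lce-rich cells, against 9193 and 10402 CPM in basal cells. Lor was thus highest, and Krt10 and Krt5 low, in the Lce-rich cells of both libraries, while Hrnr was highest in granular cells. This holds for unscaled CPM. The log2 ratios of Hrnr over granular cells, -1.02 and -1.20, were above the medians over all genes, -1.45 and -1.45.

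**Figure D1:**
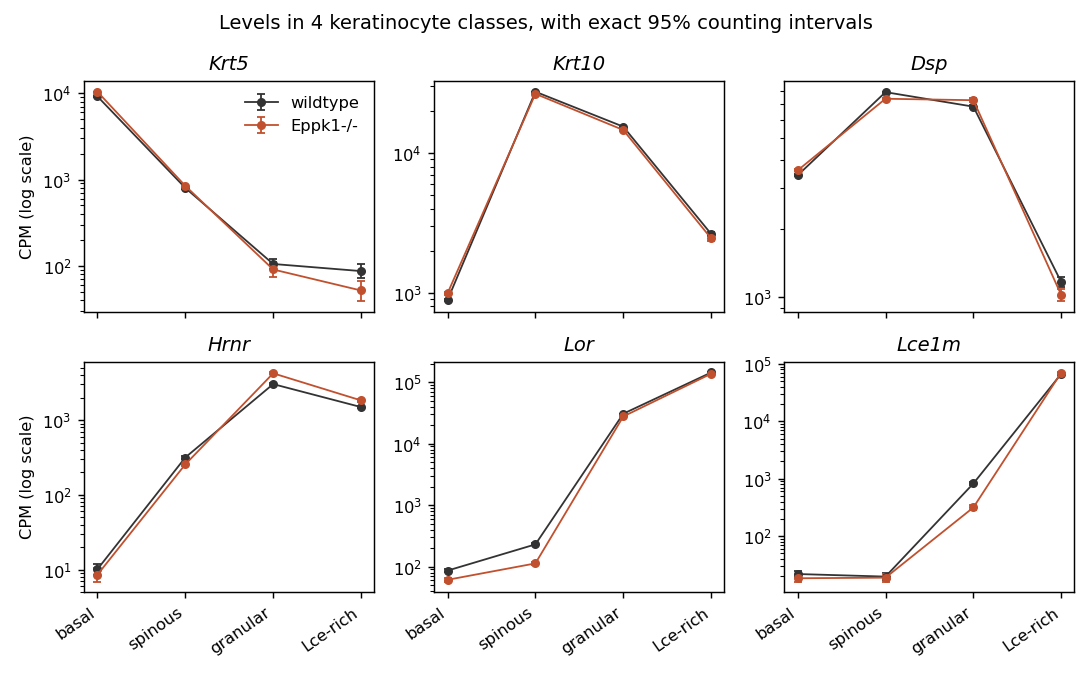
CPM on a log scale (y) of Krt5, Krt10, Dsp, Hrnr, Lor and Lce1m in basal, spinous, granular and Lce-rich cells (x) of the wildtype (dark) and Eppk1-/- (orange) library, with exact 95% counting intervals. Lor and Lce1m are highest in Lce-rich cells, Hrnr is highest in granular cells, and Krt10 and Dsp are lower in Lce-rich than in granular cells, in both libraries.

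Some members carried genes of another cell type. In 2 wildtype cells Flg and Lor held 0.448% and 0.580% of UMIs, the lowest shares of all, and their leading genes included the chemokines Cxcl2 and Ccl7 together with Retnla, Apoe and Ctsb. The 14 genes of a list of macrophages and dendritic cells summed to 778 UMIs or 549 CPM in the wildtype, with 0 genes at 0, and to 136 UMIs or 128 CPM in the Eppk1-/- library, with 4 genes at 0, and Cd74 had most UMIs of the list over both libraries (62 and 77). In the wildtype the complement gene C1qa led, with 134 and 0 UMIs. At least 10 UMIs of the list were held by 4 wildtype cells, with 88.4% of the wildtype total, and by 1 Eppk1-/- cell, with 61.0%. The counts over all genes, the 10 lowest genes and the list counts that move are therefore given with and without these 5 cells. They are called the 5 cells with macrophage genes below, after the list of macrophages and dendritic cells. In the Eppk1-/- library that list was led by the antigen presentation genes Cd74 (77 UMIs), H2-Aa (19) and H2-Ab1 (17), against 8 UMIs of Cd68 and 0 of C1qa. Fewer cells of a type and less RNA per cell cannot be told apart in sums over a class.

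Genes of further cell types were low. The lists of endothelial cells (2.12 and 2.82 CPM, 8 and 8 of 10 genes at 0), of muscle and pericytes (5.65 and 2.82 CPM, with Acta2, Myh11, Myh4, Ckm and Actc1 at 0 in both) and of T and NK cells (21.9 and 20.7 CPM, 4 and 4 of 10 at 0) gave little signal. Fibroblast genes summed to 91.1 and 108 CPM, led by Col1a1, but the limit on Col1a1, Col1a2, Col3a1 and Dcn that chose the cells fixes that they are low. Melanocyte and Schwann cell genes summed to 162 and 133 CPM, nearly all of it Mbp (228 and 136 UMIs), while Dct, Tyrp1, Pmel, Mlana and Sox10 stood at 0 in both. Sebocyte genes summed to 275 and 213 CPM and genes of the inner root sheath and hair shaft to 104 and 104 CPM, with 14 and 16 of 19 at 0. Companion layer genes summed to 204 and 247 CPM and genes of proliferating keratinocytes to 160.3 and 184 CPM. The counts of 2 wildtype pairs of barcodes and of 1 Eppk1-/- pair agreed within sampling noise (chi-square per degree of freedom 0.9995, 1.17 and 1.02, against medians of 12.4 and 10.3 over all pairs), so that each of these pairs may be 1 cell read under 2 barcodes. One of the wildtype pairs was the pair of cells lowest in Flg and Lor.

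Lce1m led the Lce transcripts in both libraries. It stood at 67326 CPM in the wildtype, where single cells ran from 3158 through a median of 73531 to 144925 CPM. In the Eppk1-/- library it stood at 70774 CPM, with single cells from 11209 through 73571 to 138510 CPM. The cells of the 2 libraries overlapped over nearly their whole range. Lce1a2 stood at 12952 and 11059.8 CPM, Lce1b at 12434 and 8699 CPM, Lce1c at 4689 and 4155 CPM and Lce1a1 at 4694 and 3364 CPM. Lce1d, at 3468 and 2718 CPM, was uneven among cells, since 59.7% of wildtype and 52.8% of Eppk1-/- cells held any Lce1d UMI while single cells reached 46722 and 35608 CPM. Lce1l stood at 1856 and 994 CPM, Lce1f at 1257 and 874 CPM, Lce6a at 952 and 733 CPM, Lce1e at 238 and 214 CPM and Lce1k at 225 and 206 CPM. The Lce3 genes were rare, with 128 and 30 UMIs of Lce3c, 61 and 19 of Lce3d, 10 and 0 of Lce3e, and 1 and 0 of Lce3f. Lce3a and Lce3b had 0 UMIs in both, where the floor of 3 UMIs per library is 2.12 and 2.82 CPM and the upper limit of the exact interval 2.60 and 3.47 CPM.

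These values rank UMIs and not transcripts, since the number of probes per gene is not given in the sources used here. The Lce1 genes are close copies, and 43.2% of the 25-base words of Lce1a2, 46.1% of those of Lce1b and 46.3% of those of Lce1d occur in another Lce gene, against 2.38% for Lce1m and 0 for Lce6a. Values of single Lce1 and Lce3 genes other than Lce1m are uncertain to that extent.

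The make-up of the Lce transcripts differed along the Lce share, which is a description of the counts that chose the cells. In cells with under 5% Lce UMIs the median share of Lce1m among a cell's Lce UMIs was 96.3% in wildtype and 95.2% in Eppk1-/- cells. In cells with 20% or more Lce UMIs it was 48.3% and 55.0%. No cell with at least 90% Lce1m (17 and 20 cells) had an Lce share above 9.81% or 9.59%, and no cell with an Lce share of 20% or more had over 63.7% or 63.3% Lce1m. Over the cells of a library, the Lce1m share and the Lce share had a Spearman rank correlation of -0.64 (n = 72) and -0.76 (n = 53). All cells of a library share its preparation, and both measures share the Lce1m count.

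**Figure D2:**
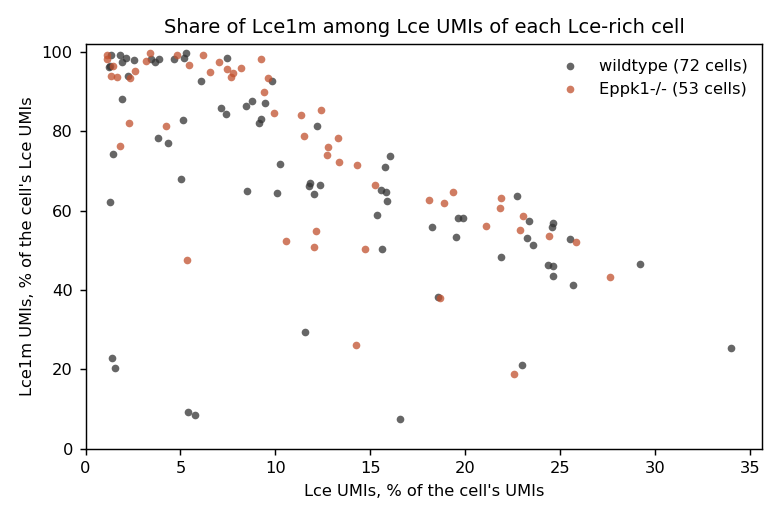
Share of Lce1m among the Lce UMIs of each Lce-rich cell in % (y) against the share of Lce UMIs among all UMIs of the cell in % (x), for 72 wildtype (dark) and 53 Eppk1-/- (orange) cells. All cells with at least 90% Lce1m lie below an Lce share of 10%, and no cell with an Lce share of 20% or more is above 63.7% Lce1m.

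Sums over 4 ranges of the Lce share, 1 to 5%, 5 to 10%, 10 to 20% and 20% or more, gave the same order. Lce1m took 89.96%, 81.2%, 60.0% and 49.4% of the Lce UMIs in the wildtype (19, 17, 21 and 15 cells) and 94.5%, 89.99%, 64.9% and 53.5% in the Eppk1-/- library (13, 13, 18 and 9 cells). Lce1a2 took 1.80%, 4.26%, 12.9% and 15.2% in the wildtype and 0.332%, 3.07%, 12.4% and 15.2% in the Eppk1-/- library. Lce1b took 3.06% and 0.603% in the lowest range and 15.1% and 12.8% in the highest. The level of Lce1m itself was higher in the cells richer in Lce, as were those of Lce1a2 and Lce1b. On the scale of CPM with Lce genes left out of the total Lce1m stood at 22832 and 22209 in the lowest and at 160021 and 164787 in the highest range, and Lce1a2 at 458 and 77.9 against 49238 and 46816.

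The number of genes detected was lower the higher the Lce share. The median was 2918, 1907, 1569 and 1172 genes over the 4 ranges in wildtype and 2783, 2168, 1636 and 1272 in Eppk1-/- cells. The rank correlation of genes detected with the Lce share was -0.73 (n = 72) and -0.81 (n = 53), and that of UMIs was -0.18 and -0.27. A higher Lce share leaves fewer UMIs for other genes, and its part in the gene number was not tested.

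**Figure D3:**
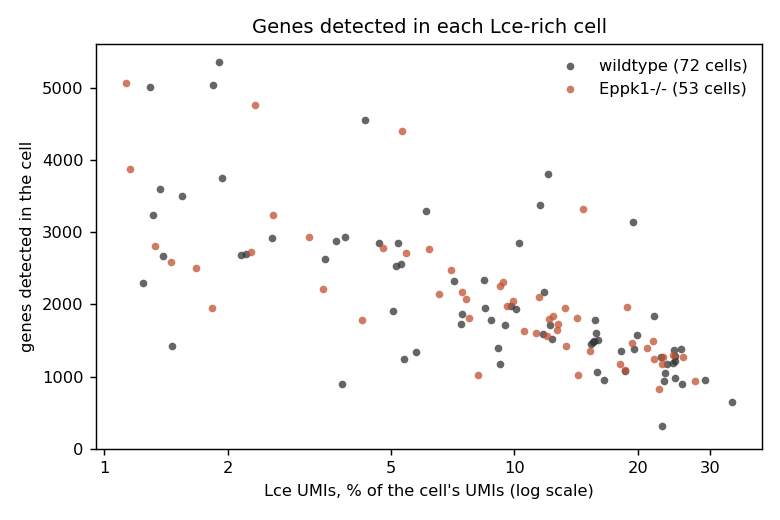
Genes detected in each Lce-rich cell (y) against its share of Lce UMIs in % (x, log scale), for 72 wildtype (dark) and 53 Eppk1-/- (orange) cells. Gene numbers reach 5351 and 5064 in cells with an Lce share under 5% and stay at or below 1843 and 1485 in cells with 20% or more.

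Other genes were then followed along the Lce share, each as CPM with Lce genes left out of the total, so that Lce transcripts did not dilute them. Among 609 genes with at least 200 UMIs in each library, 133 (21.8%) had a rank correlation of at least 0.5 with the Lce share over the cells of both libraries, 135 (22.2%) one of at most -0.5, and 0 had correlations past 0.5 of opposite sign. The genes named in this and the next paragraph were chosen after their values were seen. Higher at a higher Lce share were the stress kinase gene Mapk13 (0.94 and 0.93), Rnf225 (0.91 and 0.92), the envelope gene Kprp (0.90 and 0.94) and the lipid transporter gene Spns2 (0.89 and 0.91). Mapk13 stood at 458, 2165, 3908 and 7308 CPM over the 4 ranges in the wildtype and at 485, 1999.8, 4619.9 and 5858 in the Eppk1-/- library. Kprp stood at 1874 and 1997 in the lowest and at 23048 and 22478 in the highest range, and Il1a, an interleukin stored in keratinocytes, at 78.3 and 113 against 3200.4 and 2019.8. The levels of these 3 genes were higher at each higher range in both libraries. Gabarapl2 (0.92 and 0.89), Map1lc3a (0.85 and 0.91), Atg9b (0.78 and 0.87) and Wipi2 (0.74 and 0.75), each known from autophagy, were picked for their values and not from a list. Other genes linked to autophagy, also picked by eye, were mixed, with 0.71 and 0.63 for Gabarapl1, -0.71 and -0.73 for Ubqln1 and -0.13 and -0.11 for Pink1.

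Krtdap, Hspb1, Perp and Dsp were lower in the highest than in the lowest range of the Lce share. Krtdap, a secreted protein of differentiating keratinocytes, stood at 13974 and 16728 CPM in the lowest and at 821 and 1316 in the highest range. The small heat shock protein gene Hspb1 stood at 5153 and 5565 against 101 and 83.8, the desmosomal gene Perp at 2706 and 2910.2 against 112 and 50.3, and Dsp at 3015 and 2609 against 160 and 67.1. The shares over all 609 genes, 21.8% past 0.5 and 22.2% past -0.5, stand beside the counts of the lists that follow. Of 8 spinous genes followed, 6 were past -0.5 in both libraries and 0 past 0.5, of 7 desmosome genes 4 (Dsc1, Dsp, Jup and Perp) and 0, and of 8 transcription factors of differentiation 6 (Grhl3, Klf5, Ovol1, Cebpb, Rora and Ehf) and 0. Klf4, a factor of barrier formation, went the other way, with 0.53 and 0.28. Of 13 proteases, 7 were past -0.5, among them the kallikreins Klk7 and Klk8 and the cathepsins Ctsb, Ctsd, Ctsh and Ctsl, and 3 past 0.5 (Klk9, Furin and Tmprss13). Of 14 envelope genes Lor, Crct1 and Kprp were past 0.5 and Sprr1a, Cnfn, Sbsn, Krtdap and Dmkn past -0.5. Of 15 lipid barrier genes Aloxe3 and Smpd3 were past 0.5 and 4 past -0.5, and of 9 protease inhibitors Csta1 was past 0.5 and Spink5, Serpina12, Serpinb7 and Wfdc21 past -0.5. The counts past 0.5 for envelope genes and proteases, and that past -0.5 for lipid barrier genes, were near the shares over all genes. Of 16 early genes of dissociation 6 (Fos, Fosb, Fosl1, Junb, Egr1 and Zfp36) were past -0.5 and Jund past 0.5, with median correlations of -0.52 and -0.44 against -0.10 and -0.11 over all genes, and their part in the other values was not tested. Flg, the profilaggrin gene, had correlations of 0.13 and 0.09. All correlations include the 2 wildtype cells lowest in Flg and Lor, which had Lce shares of 1.39% and 1.54%. These cells held 21.0% of the wildtype Ctsb UMIs and 7.23% of those of Zfp36, and their part in the correlations was not tested.

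**Figure D4:**
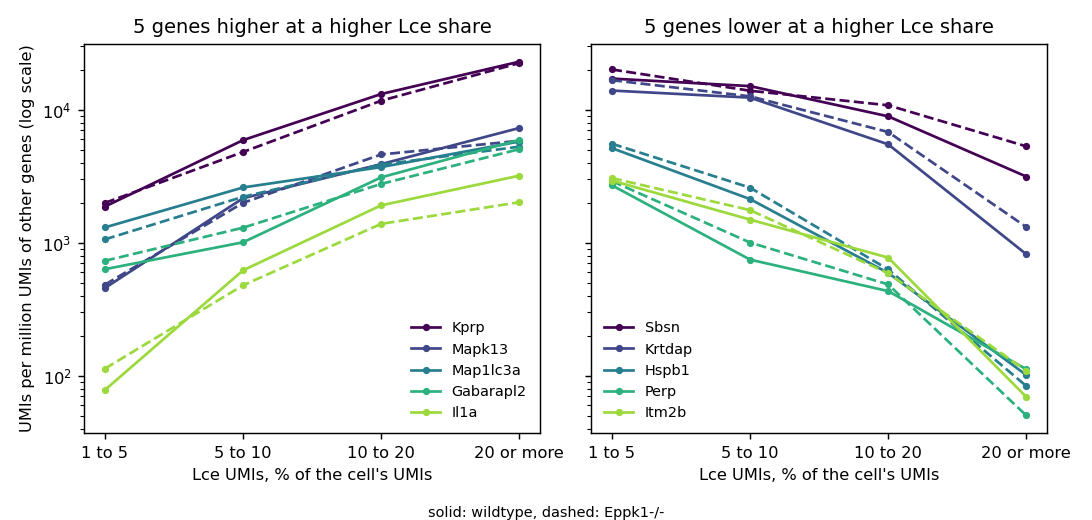
CPM of genes other than Lce (y, log scale), summed over the Lce-rich cells in 4 ranges of the Lce share in % (x), with the wildtype solid and Eppk1-/- dashed. Kprp, Mapk13, Map1lc3a, Gabarapl2 and Il1a are higher, and Sbsn, Krtdap, Hspb1, Perp and Itm2b lower, at each higher range in both libraries.

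Lce-rich cells were next set against granular cells, which the Lce share separates by definition. Over 3943 genes the median log2 ratio of Lce-rich over granular cells was -1.45 in wildtype and -1.45 in Eppk1-/- cells. Genes were counted as higher or lower where they were past 1 or -1 on that scale in each library, called the size rule here. By it 308 genes (7.81%) were higher and 2353 (59.7%) lower in Lce-rich cells. Under TMM scaling, which centres the bulk of the genes, the split was 866 higher and 310 lower. Ratios over granular cells below are on the unscaled log2 CPM scale and are to be read against that median.

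Several genes had hardly any UMIs in granular cells. Tbc1d24, whose family acts in vesicle transport, stood at 147 and 149.6 CPM and had 0 UMIs in granular cells of both libraries, at least 105-fold and 53.9-fold higher against the floor of 3 UMIs per library. Lnx1, a ubiquitin ligase gene, stood at 239 and 215 CPM against 0 and 0.925 CPM. Gpsm1, a regulator of G protein signalling, stood at 889.6 and 866 CPM against 2.80 and 9.25 CPM. All 3 were thus well above granular cells in each library. Tmem177, known from mitochondria, stood at 1447 and 1286 CPM against 10.7 and 28.7 CPM. Krtap3-2, a keratin-associated protein of the hair shaft, stood at 924 and 567 CPM against 6.53 and 1.85 CPM. Ankrd23 (717 and 708 CPM against 9.80 and 1.85 CPM), Myl4 (108 and 121 CPM against 0.467 and 0 CPM) and Asb2 (57.9 and 103 CPM against 0.933 and 0 CPM), all known from striated muscle, were also among the 15 leading genes other than Lce genes, while the muscle genes Myh4, Ckm and Actc1 were at 0. The others were Pxylp1, Kctd4, Frmpd1, Rab3b, Tmem229b, Gm2a and Rhox10.

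Over all genes 7.81% were higher and 59.7% lower by the size rule, and TMM scaling turned these counts from 308 and 2353 to 866 and 310. Each list count below is to be read beside these shares. Among envelope genes 4 of 17 were higher and 6 lower by the size rule (medians -0.69 and -0.61). Crct1, a small cysteine-rich protein of the complex, stood at 37975 and 38118 CPM, against 5127 and 5535 CPM in granular cells. Lor was among the higher genes but had defined the granular cells together with Flg. Csta1, a cystatin that inhibits cathepsins, was the 1 of 13 protease inhibitors that was higher (4246 and 4394 CPM against 718 and 732 CPM), while 10 were lower (medians -1.54 and -2.16). Of 18 proteases 5 were higher and 3 lower (medians 0.00 and -0.30). Asprv1, which cuts profilaggrin, stood at 14872 and 17288 CPM against 4819.8 and 5763 CPM, and the kallikrein Klk9 had log2 ratios of 3.54 and 3.51. Of 32 lipid barrier genes 4 were higher and 14 lower (medians -0.72 and -0.42), with the sphingomyelinase gene Smpd3 at 4.25 and 4.40. Of 8 genes of the interleukin-1 family 4 were higher, with Il18 at 816 and 985 CPM against 92.9 and 85.1 CPM, and 1 was lower (medians 1.32 and 1.13). Of 3 genes on nuclear breakdown, the nucleases Trex2 (1.27 and 1.196) and Dnase1l2 (1.46 and 1.22) were higher and the lamin gene Lmna (-2.31 and -2.72) lower. Of 2 cross-linking enzymes 0 were higher and 1 lower (medians -1.48 and -1.52).

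The tight junction, plakin and desmosome lists had medians below that of all genes. All 11 measured tight junction genes (medians -2.66 and -2.26), 6 of 6 plakins (-2.52 and -2.70), 14 of 17 cholesterol synthesis genes (-2.35 and -2.49) and 8 of 10 desmosome genes (-2.13 and -2.18) were lower by the size rule. Cdsn, whose protein corneodesmosin joins cornified cells, was not among them, with 0.31 and 0.16. Of 30 transcription factors of differentiation 24 were lower and 0 higher (-2.15 and -2.26), as were 6 of 10 spinous genes (-2.14 and -2.28) and 4 of 6 suprabasal keratins (-1.91 and -2.35), whose member Krt23 was higher. Beside 59.7% lower and a median of -1.45 over all genes, 3 of 4 S100 genes were lower by the size rule (-1.52 and -1.44). By the same rule 11 of 21 early genes of dissociation (-1.05 and -1.29) and 3 of 6 basal genes (-0.85 and -1.23) were lower. Both shares were near that over all genes. Glucocorticoid response genes (5 of 11, -1.16 and -1.20) and connexins (1 of 3, -0.65 and -0.81) had smaller shares. The medians of these lists were above that over all genes, and the differences in share were not tested. The 10 lowest genes were Krt17 and Krt79, keratins of the upper follicle, and Id1, Nrarp, Adamts1, Cldn3, Aqp9, Pdk4, Mcf2l and Sprr4. Krt17 stood at 67.8 and 139 CPM against 3066 and 4152 CPM, and all 6 infundibulum genes measured were lower (-3.24 and -4.25).

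Eppk1 (chr15:76101481-76120195, GRCm38), the targeted gene, was first compared between the libraries as a check of the labels. It was lower in the library labelled Eppk1-/- over all kept cells (1889 and 390.3 CPM), in basal cells (1159 and 79.6 CPM), in spinous cells (5805 and 1447 CPM) and in granular cells (5028 and 3392 CPM). In Lce-rich cells it went against the label, with 739 CPM (694 to 785) in the wildtype and 939 CPM (882 to 999) in the Eppk1-/- library, a log2 ratio of 0.35 (0.22 to 0.47). The direction turned with the choice of cells, to -0.42 with an Lce share of at least 0.5% and -0.40 with no filter on cells, and the ratio was 0.15 without barcodes found in both libraries. Whether the probes lie within the deleted part is not given in the sources used here, so that these UMIs do not show that the protein was made. One wildtype cell held 494 of the 1046 Eppk1 UMIs, and 1 Eppk1-/- cell 286 of 998. Without the cell with most Eppk1 UMIs in each library the levels were 402 and 696 CPM.

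The sums differed most in the cells with more Lce. With an Lce share of 1 to 5%, Eppk1 stood at 2265 CPM (2123 to 2414) in the wildtype and at 2155 CPM (1989 to 2331) in the Eppk1-/- library. There 1 wildtype cell held 494 of 949 UMIs, the cell medians were 183 and 569 CPM, and 12 of 19 wildtype and 12 of 13 Eppk1-/- cells held an Eppk1 UMI. At 5% or more, 25 of 53 wildtype cells and 39 of 40 Eppk1-/- cells held an Eppk1 UMI, and the sums were 97.3 CPM (78.9 to 119) and 485 CPM (437 to 536). Single cells there ran from 0 through a median of 0 to 1540 CPM in the wildtype and from 0 through 384 to 1906 CPM in the Eppk1-/- library, so that the ranges overlapped. Without droplet barcodes found in both libraries the sums were 111 and 484 CPM, and without the cell with most Eppk1 UMIs in each they were 70.5 and 459 CPM. This split of the members was made after the values were seen. After each cell was thinned to 1000 UMIs, 12.5% of wildtype Lce-rich cells (5.88 to 22.4%) and 34.0% of Eppk1-/- Lce-rich cells (21.5 to 48.3%) held Eppk1, against 51.4% and 96.2% before thinning. Fibroblast-type cells, which should lack it, held it in 8.30% and 1.89% (25.7% and 9.67% before thinning) at median depths of 6449 and 6235 UMIs, and the wildtype interval reaches below that background.

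**Figure D5:**
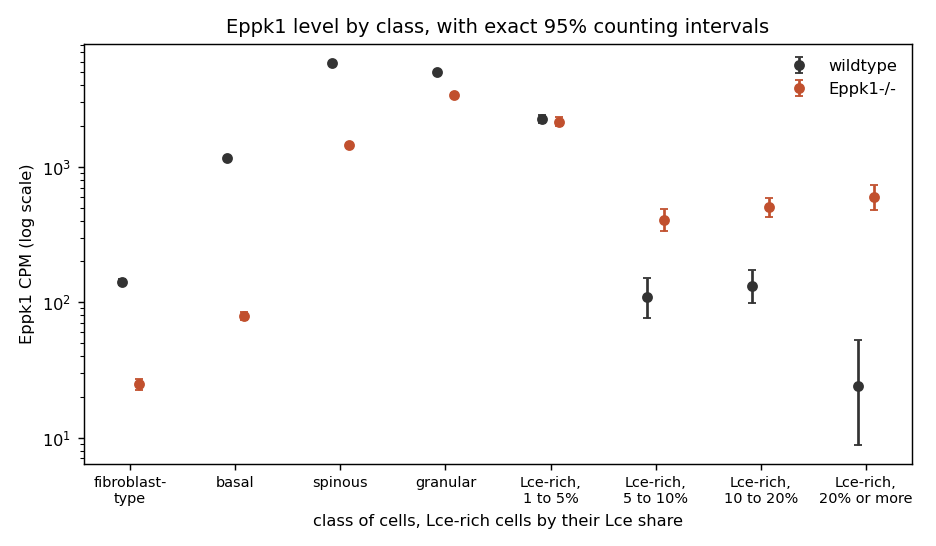
Eppk1 CPM (y, log scale) with exact 95% counting intervals in fibroblast-type, basal, spinous and granular cells and in Lce-rich cells by range of the Lce share (x), for the wildtype (dark) and Eppk1-/- (orange) library. The Eppk1-/- library is lower in all classes up to granular cells, overlaps the wildtype at Lce shares of 1 to 5% and is higher from 5% on.

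The other plakins were close in level between the libraries or sparse. Dsp stood at 1166 and 1024 CPM (log2 ratio -0.19) and periplakin (Ppl), which joins the envelope, at 629.8 and 609.6 CPM (-0.05). Envoplakin (Evpl), its partner, stood at 89.7 and 75.3 CPM (-0.25), Macf1 at 50.1 and 47.0 CPM (-0.09) and plectin (Plec) at 41.0 and 23.5 CPM (-0.78), while Dst had 26 and 8 UMIs. Plec (chr15:76170974-76232574) lies near Eppk1, and the part of this position was not tested. None of the 6 plakins with at least 50 UMIs over both libraries, Eppk1 included, reached a log2 ratio of 1 or -1, and their median was -0.14. Among all 2942 genes with as many UMIs, 0.544% reached 1 and 3.98% reached -1, and 0 of 6 is near these shares.

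Across all genes the Lce-rich cells of the 2 mice were close. Among 2942 genes with at least 50 UMIs over both libraries the median log2 ratio of Eppk1-/- over wildtype CPM was -0.02, 16 genes (0.544%) were higher by at least 1 and 117 (3.98%) lower by at least 1. Without the 5 cells with macrophage genes, 20 of 2813 genes (0.711%) were higher and 50 (1.78%) lower, 47 of them among the 117. With 1 library per genotype the spread between mice is unknown, and no gene can be said to differ between genotypes.

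Among genes found in at least 25% of the Lce-rich cells of either library, the highest ratio was that of Atp1b1, a subunit gene of the sodium pump, with 88 and 243 UMIs, 62.1 and 229 CPM and a log2 ratio of 1.87 (1.52 to 2.25). Of the wildtype cells 25% and of the Eppk1-/- cells 52.8% held Atp1b1. After thinning to 1000 UMIs these shares were 4.17% (0.868 to 11.7%) and 15.1% (6.75 to 27.6%), and the intervals overlapped. Single wildtype cells ran up to 818 CPM of Atp1b1, against 1882 CPM for Eppk1-/- cells. Over the sums of each class the levels were as follows. It stood at 129.7 and 272 CPM in granular, at 63.6 and 98.2 CPM in spinous and at 148 and 147 CPM in basal cells. In fibroblast-type cells it stood at 13.1 and 39.9 CPM, a ratio of 1.60 (1.35 to 1.86). Those cells also held the keratinocyte genes Krt10 (454 and 424 CPM) and Lor (179.8 and 65.8 CPM). How much of their Atp1b1 is background was not tested. Pnpla3, a gene of the patatin-like lipase family, stood at 53.7 and 184 CPM (1.78, 1.39 to 2.18), at 55.1 and 249 CPM in granular and at 15.2 and 64.2 CPM in spinous cells. The next 8, Herc2, Ankrd42, Otop3, Pus1, Rab3ip, Smyd1, Snx21 and Smdt1, had ratios of 1.36 to 1.10. That of Pus1 was -0.04 with cells thinned to 1000 UMIs. Of these 10 genes, Pnpla3 (chr15:84167837-84187236) and Smdt1 (chr15:82338959-82349091) lie on the chromosome of Eppk1 (chr15:76101481-76120195). The others lie on other chromosomes. The part of this position in the ratios was not tested. Among abundant envelope genes Flg2 stood at 4909.6 and 7497 CPM (0.61, 0.56 to 0.66) and Flg at 43679.6 and 58392 CPM (0.42), and in granular cells Flg stood at 18084 and 49063 CPM.

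The 10 lowest genes by the same rule were in part those of another cell type. Ccl6, Cd68, Apoe, Mt1 and Selenop had log2 ratios of -2.77, -2.72, -2.24, -2.20 and -2.19, which were -1.17, -1.16, -0.28, -1.31 and -0.06 without the 5 cells with macrophage genes. Ifitm2 had -1.73 with and -1.12 without them. Arl4c (-1.93 and -1.94), Fam3b (-1.93 and -1.96), Apol7a (-1.76 and -1.85) and Rhob (-1.73 and -1.85) were as low without these cells. The direction turned for Ifitm2 with cells thinned to 1000 UMIs (0.44) and for Apoe with no limit on fibroblast genes (0.22). Rhob, a small GTPase gene induced early after stimulation, stood at 157 and 47.0 CPM, and Apol7a, of the apolipoprotein L family, at 113 and 32.9 CPM. Of these 10 genes, Apol7a (chr15:77388219-77399110) and Selenop (chr15:3268547-3280508) lie on the chromosome of Eppk1, and the others on other chromosomes. The part of this position was not tested. Psors1c2, a gene of late epidermis that was chosen after its value was seen, stood at 386 and 155 CPM (-1.31, -1.57 to -1.06), and at 50.9 and 32.4 CPM in granular cells. The direction was not the same in all its cells, since Psors1c2 stood at 148 and 249 CPM at Lce shares of 1 to 5% (0.75, 0.24 to 1.27), at 382 and 72.2 CPM at 5 to 10%, at 624 and 112 CPM at 10 to 20% and at 391 and 231 CPM at 20% or more.

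Lce genes other than Lce1m with at least 50 UMIs had log2 ratios below 0, most of them by less than the size rule, and for Lce1e (-0.15, -0.41 to 0.09) and Lce1k (-0.13, -0.38 to 0.12) the interval held 0. Lce1m had a log2 ratio of 0.07 (0.06 to 0.09), against -0.23 for Lce1a2, -0.52 for Lce1b, -0.48 for Lce1a1, -0.17 for Lce1c, -0.35 for Lce1d and -0.90 for Lce1l. Lce3c had -1.66 (-2.30 to -1.10) and Lce3d -1.24 (-2.10 to -0.51). Without the 5 cells with macrophage genes Lce3c had 128 and 18 UMIs and a ratio of -2.44 (-3.27 to -1.75). Single cells spread widely within a library, from 0 through 6222 to 77384 CPM of Lce1b in the wildtype and from 0 through 5420 to 51103 CPM in the Eppk1-/- library, and the libraries overlapped.

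The gene lists are given by their median log2 ratio of Eppk1-/- over wildtype, beside -0.02 over all genes, and by their genes past the size rule. For the outer cell layers these were 0.02 (0 higher and 2 lower of 17) for envelope genes, 0.15 (0 higher and 1 lower of 30) for the lipid barrier, -0.05 (0 higher and 0 lower of 13) for cholesterol synthesis, -0.12 (0 higher and 1 lower of 17) for proteases, 0.05 (0 higher and 1 lower of 13) for protease inhibitors, 0.07 (0 higher and 0 lower of 1) for cross-linking enzymes and -0.31 (0 higher and 0 lower of 3) for nuclear breakdown. The lower envelope genes were Sprr2d (146 and 3 UMIs) and Sprr2h (130 and 29 UMIs), which belong to a family of close copies and were found in 9.72% and 5.66% and in 13.9% and 13.2% of cells. For junctions they were -0.05 (0 higher and 0 lower of 10) for desmosomes, 0.05 (0 higher and 0 lower of 8) for tight junctions and -0.15 (0 higher and 1 lower of 3) for connexins, whose lower gene Gjb2 was found in 9.72% and 3.77% of cells. For keratins and earlier layers they were -0.07 (0 higher and 2 lower of 6) for suprabasal keratins, -0.25 (0 higher and 1 lower of 10) for spinous genes, -0.58 (0 higher and 1 lower of 6) for basal genes and -0.36 (0 higher and 0 lower of 4) for S100 genes. The lower spinous gene was Krt1, at 158 and 55.5 CPM and found in 20.8% and 22.6% of cells, with single cells up to 4151 and 1137 CPM. The markers of the Lce-rich cells had -0.35 (0 higher and 0 lower of 5), and the 4 Lce genes of that list had helped to choose the cells. Over all genes 0.544% were higher and 3.98% lower, and 0.711% and 1.78% without the 5 cells with macrophage genes. Without them 0 of 16 proteases and 0 of 6 basal genes were lower.

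The interleukin-1 family had 0.13 (0 higher and 0 lower of 8), transcription factors -0.29 (0 higher and 1 lower of 25, but 0 lower of 24 without the 5 cells), glucocorticoid response genes -0.41 (0 higher and 3 lower of 10, but 2 of 10 without the 5 cells with macrophage genes) and early genes of dissociation, such as Fos and Jun, -0.36 (0 higher and 0 lower of 21). Of the dissociation genes 16 of 21 were below 0, and their part in the other values was not tested. Among lists of other cells, macrophages and dendritic cells had -5.24 (0 higher and 5 lower of 6), the infundibulum 0.29 (1 higher and 1 lower of 4), the companion layer 0.40 (1 higher and 0 lower of 2), sebocytes -0.25 (0 higher and 0 lower of 2), proliferating keratinocytes 0.19 (0 higher and 0 lower of 2), the inner root sheath and hair shaft 0.05 (0 higher and 0 lower of 1), fibroblasts -0.18 (0 higher and 0 lower of 1), and melanocytes and Schwann cells -0.33 (0 higher and 0 lower of 1). The macrophage UMIs lay mostly in the 5 cells described above. The higher gene of the infundibulum and the companion layer was Krt17, with 96 and 148 UMIs. The lower gene of the infundibulum was Defb6, with 103 and 15 UMIs. Krt79 of that list, with 36 and 2 UMIs, had too few to be counted. The lists of T and NK cells, endothelial cells and muscle had 0 genes with at least 50 UMIs. Beside the list counts, 0.544% of all genes were higher and 3.98% lower, and 0.711% and 1.78% without the 5 cells with macrophage genes.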

How the data were processed

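The authors aligned and counted the reads with Cell Ranger (8.0.1 in the file headers) against mm10 (GRCm38), and deposited a filtered matrix of UMI counts per library, with 9179 wildtype and 8811 Eppk1-/- barcodes and 77638793 and 65118304 UMIs. Barcodes under 200 or over 45000 UMIs, under 100 or over 7500 genes, or over 10% mitochondrial UMIs were dropped, and mitochondrial genes were left out of sums. Among cells under both limits for Lce and fibroblast genes, granular cells had at least 1% Flg and Lor, spinous cells at least 1% Krt1 and Krt10 and more of these than of Krt5, Krt14 and Krt15, and basal cells the reverse. Fibroblast-type cells had at least 2% of the 4 fibroblast genes. UMI counts were summed per library and class and given as CPM with exact Poisson intervals, and log2 ratios (0.5 UMI added to each sum) with exact conditional intervals. They measure 1 mouse against 1 mouse, with no test. Shares have Clopper-Pearson intervals.

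Named genes were all Lce genes, markers and plakins, and the leading genes of each of 31 lists. Between libraries, the 10 highest and 10 lowest ratios were named among genes found in at least 25% of the cells of either library. Over granular cells, the 15 highest among genes other than Lce genes and the 10 lowest were named. Other genes were named for their function or their values. Members and lists were chosen with earlier results of these data known. No doublets were removed. Scrublet called 1 wildtype cell, so that it did not work there, and 220 Eppk1-/- cells (2.55%), with 0 Lce-rich cells among them. Python 3.11.15, scanpy 1.11.5, scipy 1.17.1 and edgeR 4.0.16 (TMM only) were used, and the ratios were tested on simulated data. In all, 15 planned and 3 added alternatives were run.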

Additional observations from a re-analysis of the deposited data

Results flagged for a closer look

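Cells left out by the limits also held Lce signal. Above the cap of 45000 UMIs, 16 wildtype and 15 Eppk1-/- cells had at least 1% Lce UMIs, with a median Lce share of 1.62% and 1.68%, 85081 and 85974 UMIs and 6638 and 6776 genes, medians above the gene number of every Lce-rich cell. Eppk1 stood at 6395 and 4041 CPM in them, lower in the Eppk1-/- library.

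In the Eppk1-/- library 51 kept cells had at least 1% Lce UMIs together with at least 0.5% of the fibroblast genes, against 0 in the wildtype. They held a median of 1874 UMIs, 1.62% Lce and 1.64% fibroblast genes, and their leading genes were Lor, Lce1m, Crct1, Sbsn, Scd1, Elovl4 and Col1a1. Whether they are cells, doublets or free RNA was not tested.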

How the results depend on the processing

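Of 946 values computed again under the alternatives, 784 moved by less than the set limits, 158 moved by more, and 4 ratios that had been past 1 or -1 changed sign. No paired analysis was possible because each genotype is 1 library. The cause of the moves was not tested, except that fewer cells, UMIs or genes enter under the thinned and stricter settings. The log2 ratio of Eppk1 depended on the choice of cells, and its sign turned with an Lce share of at least 0.5% (-0.42) or with no filter on cells (-0.40). It was 1.68 with an Lce share of at least 2%, 0.15 without barcodes found in both libraries, 0.82 as a mean over cells, 0.78 with cells thinned to 1000 UMIs and 0.93 without the cell with most UMIs in each library.

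Genes lower in the Eppk1-/- library, 117 in the report, were 193 at an Lce share of at least 0.5%, 49 at 2%, 69 with no limit on fibroblast genes, 58 without barcodes found in both libraries, 4 of 319 thinned, 11 with at least 200 UMIs per gene and 2767 with at least 1. They were 77 without the 2 wildtype cells lowest in Flg and Lor and 50 without the 5 cells with macrophage genes, both alternatives chosen after seeing the data, as was counting barcodes of the same profile once, which moved no count by over 1.5 times. Genes higher, 16 in the report, were 43 at an Lce share of at least 2%, 123 with no limit on fibroblast genes, 57 with no filter on cells, 1 thinned, 3 with at least 200 UMIs and 1330 with at least 1. With no limit on fibroblast genes the Eppk1-/- share of Lce-rich cells was 1.21%.

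Genes higher than in granular cells, 308 in the report, were 866 under TMM scaling, 86 of 283 thinned and 526 with at least 1 UMI. Genes lower, 2353, were 998 with no filter on cells, 310 under TMM scaling, 74 thinned, 660 with at least 200 UMIs and 6018 with at least 1. The sign turned for Dst (0.90) and Apoe (0.22) with no limit on fibroblast genes, and for Pus1 (-0.04) and Ifitm2 (0.44) in thinned cells. Depth limits the rarer genes, since 50 UMIs over 125 cells leave wide counting intervals.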
